A study of Mus with 6 samples.

Results

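Bone morphogenetic proteins (BMPs) and activins are secreted ligands of the TGF-β superfamily. They bind complexes of type II receptors, which are constitutively active kinases, and type I receptors, which the type II receptors phosphorylate. Activated type I receptors then phosphorylate SMAD proteins, which enter the nucleus with SMAD4 and regulate target genes such as the Id and Msx genes. In the lens, BMP signaling is needed for induction of the placode and takes part in fiber cell differentiation, and in lens epithelial cells (LECs) BMP and TGF-β signals are known to act against each other during epithelial to mesenchymal transition.

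The RNAseq data were examined here for 8 genes, chosen by name: the type I receptor genes Bmpr1a, Acvr1b, Acvr1 and Acvrl1, the type II receptor genes Bmpr2, Acvr2a and Amhr2, and Msx2, which encodes a homeobox transcriptional repressor downstream of BMP. The genes were chosen with earlier results of these data known, so the number called among them is not a blind test. All 8 were found by their Ensembl identifiers among the 55421 genes counted. LECs came from wild type C57BL/6 mice, which the sample labels give as 2 months old and the study's methods as 3 to 5 months old. The fiber cell mass was removed surgically to model cataract surgery, and the capsule with its attached LECs was collected immediately (0 h post cataract surgery, PCS) or 6 h later (6 h PCS). Capsules of 5 independent animals were pooled for each library, and 3 such pools were sequenced at either time. All 6 libraries came from operated lenses, so there was no group without surgery.

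Each library had between 18039974 and 24701039 read pairs counted on genes. Levels are given as counts per 1000000 (CPM) on library sizes scaled by the trimmed mean of M-values (TMM), and they describe the whole capsule, so fewer cells of a type and less RNA per cell cannot be told apart. Groups were compared with the quasi-likelihood test of edgeR over 16810 genes, with p-values adjusted by Benjamini and Hochberg (FDR). Genes were called differentially expressed (DEGs) where the FDR did not exceed 0.05 and the level changed by more than 2-fold. The pools were taken as replicates, and p-values therefore describe the spread between pools. All 6 lens epithelial markers that could be named (Pax6, Foxe3, Sox2, Epha2, Prox1 and Gja1) were detected in every library, with a summed level of 1700.3 to 1925 CPM at 0 h PCS and 1510.3 to 1772 CPM at 6 h PCS. Within this sum, Prox1 and Sox2 fell to 59.5% and 61.6% of their level at 0 h PCS (FDR 0.0119 and 0.0151 by edgeR), Epha2 was an upregulated DEG (2.32-fold, FDR 0.0134), and the other 3 did not pass. The library of 6 h replicate 3 stood apart in pigment cell genes: Tyr, Tyrp1, Dct and Pmel summed to 1965 CPM there and to between 51.4 and 456 CPM in the other 5 libraries. Of 5 corneal epithelial markers, 2 could be named, the keratins Krt5 and Krt12. Their summed level was 0.765 to 14.7 CPM at 0 h PCS and 69.2 to 104.2 CPM at 6 h PCS. Neither passed the FDR limit (0.146 for Krt5 and 0.0792 for Krt12 by edgeR). Of 6 leukocyte markers that could be named, Cd68, a macrophage gene, was an upregulated DEG (1.03 to 5.99 CPM, FDR 0.0129 by edgeR), the other 5 did not pass, and the summed levels overlapped (13.5 to 22.6 CPM at 0 h PCS and 16.8 to 32.3 CPM at 6 h PCS). The part of these cells in the values that follow was not tested.

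The counts of 7 of the 8 genes were high enough to be tested, and those of Amhr2 were not. Msx2 was the single DEG among the 7, and it fell. Acvr2a also fell at an FDR of at most 0.05, but by less than the fold limit. None of the 7 rose by the test. Over all genes tested, 5.35% were DEGs, of which the larger number rose: 0.821% of the tested genes were downregulated DEGs and 4.53% upregulated DEGs. At an FDR of at most 0.05 alone, 2.02% fell and 6.31% rose. In 6 of the 7 tested genes the libraries of the time points did not overlap, 3 with higher values at 6 h PCS (Acvr1, Acvrl1 and Bmpr2) and 3 with lower values (Acvr2a, Bmpr1a and Msx2), where 30.6% of all tested genes were separated, 15.3% upward and 15.3% downward. Acvrl1 passed the low-count filter only through its libraries at 6 h PCS, so its place among the separated genes follows in part from the filter under either scaling. The directions also depended on how libraries were scaled. With library size as the only scaling, the median log2 fold change over all genes was −0.32, the share of DEGs that were upregulated went from 84.7% to 47.7%, and 5 of the 7 genes were separated, 1 upward (Acvrl1) and 4 downward (Acvr1b, Acvr2a, Bmpr1a and Msx2), beside 8.32% and 33.2% of all genes.

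**Figure D1:**
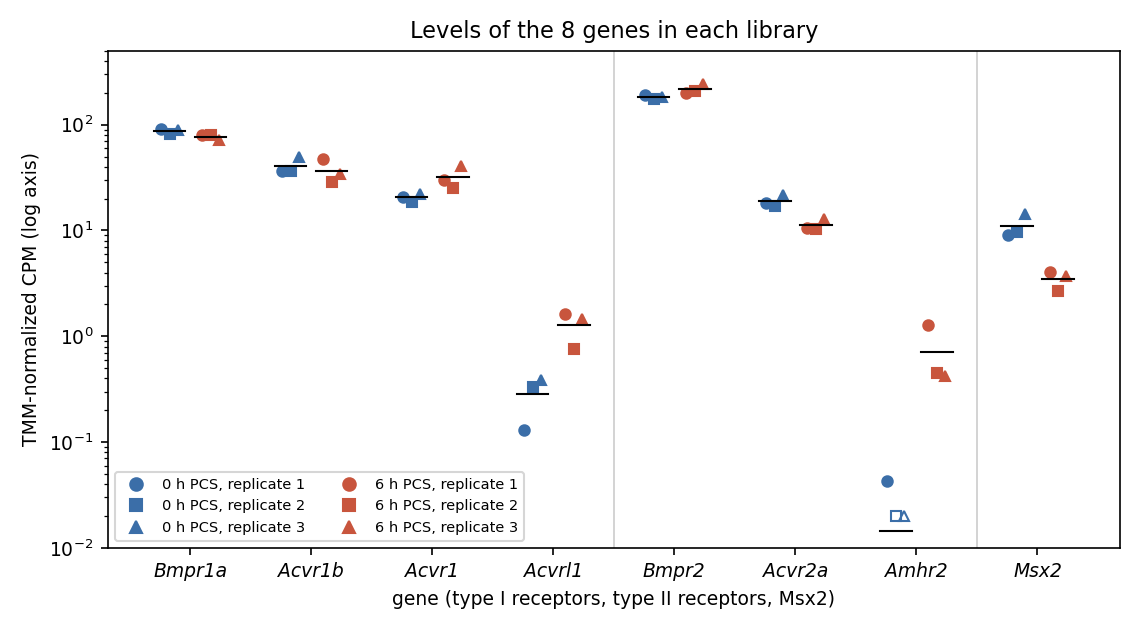
TMM-normalized CPM (log axis) of the 4 type I receptor genes, the 3 type II receptor genes and Msx2 in each of the 6 libraries, with horizontal bars for the means of 3 libraries; open symbols mark a count of 0, which a log axis cannot show, and are drawn near its lower end. Msx2 and Acvr2a lie lower in all 3 libraries at 6 h PCS, Bmpr2 and Bmpr1a differ little between the time points, and Acvrl1 and Amhr2 reach at most 1.61 CPM.

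Msx2 (ENSMUSG00000021469) lies on chromosome 13 of GRCm38 between 53466881 and 53472780. Its level was 9.04, 9.62 and 14.4 CPM in the libraries at 0 h PCS and 4.03, 2.65 and 3.73 CPM in those at 6 h PCS. The lowest library at 0 h PCS was therefore more than 2-fold above the highest at 6 h PCS, and the counts behind these levels were 210 to 333 and 59 to 62 read pairs. The log2 fold change was −1.67 (standard error 0.304, 95% interval −2.35 to −0.99, FDR 0.00937 by edgeR), which leaves 31.5% of the level at 0 h PCS. Msx2 was a DEG in each of the 6 fits that left out 1 library, where its log2 fold change ran from −1.80 to −1.43 and its highest FDR was 0.0452. When the test itself asked for a change beyond 2-fold, which is stricter than a fold limit on the estimate, Msx2 was not called (FDR 0.233).

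Msx1 (ENSMUSG00000048450), the close relative of Msx2, was measured at 35.9, 24.0 and 29.9 CPM at 0 h PCS and at 22.8, 15.6 and 12.6 CPM at 6 h PCS. The lowest value at 0 h PCS was above the highest at 6 h PCS, but the log2 fold change of −0.82 (standard error 0.244) missed the threshold (FDR 0.0711 by edgeR). Msx1 passed the FDR limit in 6 of 16 alternative fits, and it was a DEG on library size alone (−1.14, FDR 0.0127) and without 6 h replicate 1 (−1.08, FDR 0.0193). Per exon length, Msx1 was at 10.8 ± 2.02 FPKM and Msx2 at 3.76 ± 1.09 FPKM at 0 h PCS (SD, n = 3), and at 6 h PCS they were at 4.87 ± 1.26 and 0.937 ± 0.119 FPKM. The number of Msx1 counts per Msx2 count within a library, which no scaling affects, ran from 2.08 to 3.97 at 0 h PCS and from 3.37 to 5.90 at 6 h PCS, so the ranges overlapped. In the RefSeq annotation of GRCm38 the whole of Msx2 lies within a long noncoding gene, Gm33763, and as the strand setting of the counting is not given, reads of such an overlapping transcript cannot be told apart from those of Msx2.

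Markers of stromal cells were summed for comparison with Msx2. The 5 that could be named (Col1a1, Col1a2, Pdgfra, Pdgfrb and Dcn) ran from 365 to 412 CPM at 0 h PCS and from 288 to 363 CPM at 6 h PCS, without overlap. Pdgfra alone had a mean of 212 CPM at 0 h PCS and fell to 60.1% of that level (FDR 0.0179 by edgeR). Whether its RNA came from stromal cells or from LECs cannot be told from libraries of whole capsules. Dcn was at 6.11, 3.43 and 5.57 CPM at 0 h PCS and at 2.28, 0.405 and 2.65 CPM at 6 h PCS, also without overlap, with a log2 fold change of −1.52 that did not pass (FDR 0.161). Col1a1, Col1a2 and Pdgfrb overlapped and did not pass. Without Pdgfra the other 4 summed to 159 to 187 CPM at 0 h PCS and to 165 to 247 CPM at 6 h PCS, with overlap, and Col1a1 made up 116 CPM of the highest sum, in 6 h replicate 3. The separation of the full sum thus rested on Pdgfra, and a fall of stromal RNA as a whole was not shown. The part of these markers in the change of Msx2 was not tested.

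Among the type II receptor genes, Acvr2a fell and Bmpr2 did not change by the test. Acvr2a encodes a receptor for activins that also binds several BMPs, and Bmpr2 encodes a receptor that is specific to BMPs and related ligands. Acvr2a (ENSMUSG00000052155, chromosome 2, 48814109 to 48903264) had 18.1, 16.9 and 21.8 CPM at 0 h PCS. At 6 h PCS it had 10.5, 10.4 and 12.8 CPM, all below the 0 h libraries. The log2 fold change was −0.76 (standard error 0.198, 95% interval −1.20 to −0.32, FDR 0.0446 by edgeR), or 59.2% of the starting level. This call was close to the threshold: it was lost in all 6 fits without 1 library (FDR 0.0507 to 0.167) and with the size factors of DESeq2 (FDR 0.0509), while the log2 fold change stayed between −0.86 and −0.65 over the fits without 1 library. With library size alone Acvr2a was a DEG (log2 fold change −1.07). In the annotation it overlaps Orc4 by 441 bases.

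Bmpr2 (ENSMUSG00000067336, chromosome 1, 59764279 to 59878081) was at 190.5, 176 and 182 CPM at 0 h PCS and at 201, 208 and 244 CPM at 6 h PCS. The highest value belonged to 6 h replicate 3. The log2 fold change was 0.25 (standard error 0.133, FDR 0.301 by edgeR), with a 95% interval from −0.048 to 0.55, so that in this fit a doubling and a halving both lie outside the interval. The sign turned on library size alone, to −0.065.

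Amhr2 (ENSMUSG00000023047, chromosome 15, 102445002 to 102454640) encodes the type II receptor for anti-Müllerian hormone, a ligand that shares its type I receptors with BMPs. It had 1, 0 and 0 counts at 0 h PCS and 19, 10 and 7 counts at 6 h PCS. With these counts summed over each time point, the ratio of 6 h to 0 h PCS was 49.5, with an exact 95% interval from 8.33 to 2008 that covers counting error only. This ratio rests on the 1 read pair of 0 h replicate 1, without which it has no finite value. Even at 6 h PCS its level was 0.310 ± 0.187 FPKM (SD, n = 3). Fitted with no low-count filter, Amhr2 had an FDR of 0.0548 by edgeR and was not called.

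**Figure D2:**
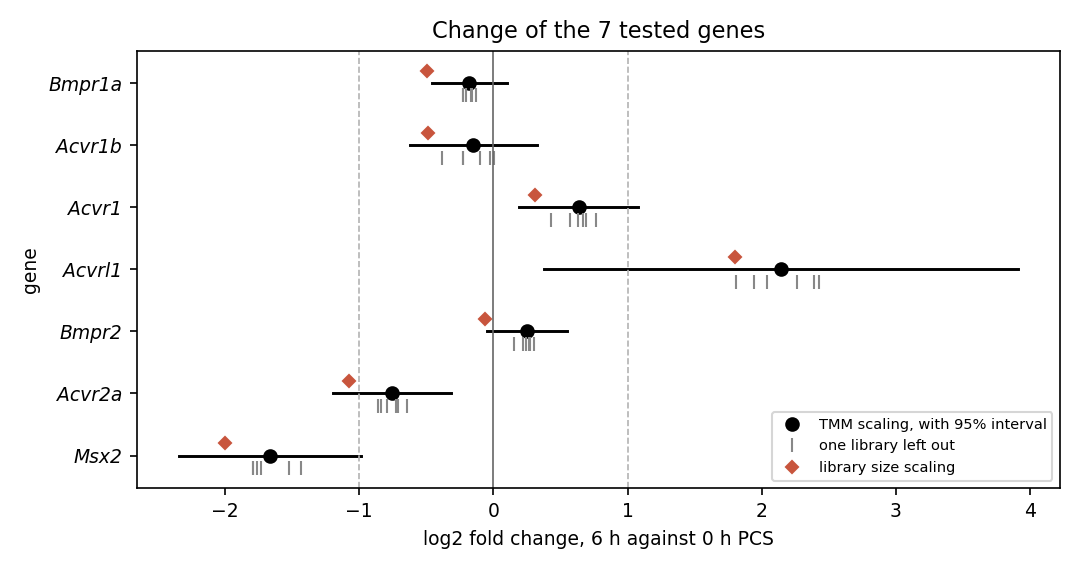
Log2 fold change at 6 h against 0 h PCS of the 7 tested genes with TMM scaling (black points, bars for the 95% interval), without each library in turn (grey ticks) and with scaling on library size alone (red diamonds); dashed lines mark a fold change of 2 in either direction. The whole 95% interval of Acvr2a lies below 0, that of Msx2 reaches from −2.35 to −0.99, those of Acvr1 (0.19 to 1.08) and Acvrl1 (0.38 to 3.91) lie above 0, and those of Bmpr1a, Acvr1b and Bmpr2 include 0. The intervals are not adjusted for multiple testing. Acvr1 and Acvrl1 did not pass the FDR limit (0.0836 and 0.135 by edgeR), and Acvrl1 was tested only because of its counts at 6 h PCS.

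None of the 4 type I receptor genes was called. Bmpr1a (ENSMUSG00000021796, chromosome 14, 34411061 to 34503336), which encodes a main type I receptor for BMP2 and BMP4, had 90.3, 82.3 and 89.8 CPM at 0 h PCS. Its values at 6 h PCS were 79.9, 79.8 and 71.9 CPM, each below the lowest at 0 h PCS. The difference was small, with a log2 fold change of −0.18 (standard error 0.125, 95% interval −0.46 to 0.099, FDR 0.432 by edgeR). On library size alone it was −0.49 and passed the FDR limit (0.0498).

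Acvr1b (ENSMUSG00000000532, chromosome 15, 101174072 to 101213684) encodes the type I receptor through which activins signal to SMAD2 and SMAD3. It was at 36.4, 36.3 and 49.2 CPM at 0 h PCS and at 47.5, 28.6 and 33.9 CPM at 6 h PCS. The ranges overlapped, and the spread between pools was larger than the difference of the means. The log2 fold change was −0.15 (standard error 0.212, 95% interval −0.62 to 0.32, FDR 0.723 by edgeR), and without 0 h replicate 3 it was 0.0057. The annotation places a microRNA gene, Mir6962, within Acvr1b, over 63 bases.

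Acvr1 (ENSMUSG00000026836, chromosome 2, 58446438 to 58566828) encodes a type I receptor for BMP6, BMP7 and anti-Müllerian hormone that signals to SMAD1 and SMAD5. Its level was 20.5, 18.8 and 22.3 CPM at 0 h PCS and 30.2, 25.1 and 40.4 CPM at 6 h PCS. All 6 h libraries were above the 0 h libraries, and the highest was 6 h replicate 3, the library with the most pigment cell RNA. The log2 fold change was 0.64 (standard error 0.199, 95% interval 0.19 to 1.08), and it did not pass (FDR 0.0836 by edgeR). Without 6 h replicate 3 it was 0.43, and the part of the pigment cell RNA in it was not tested. Fitted with no low-count filter, Acvr1 passed the FDR limit (0.0291). In the annotation it overlaps the protein-coding gene Upp2 by 512 bases.

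Acvrl1 (ENSMUSG00000000530, chromosome 15, 101128522 to 101145336) encodes a type I receptor for BMP9 and BMP10 that is known chiefly from endothelium. It had 3, 9 and 9 counts at 0 h PCS, or 0.129, 0.328 and 0.388 CPM. At 6 h PCS it had 24, 17 and 24 counts, or 1.61, 0.764 and 1.45 CPM, all above the 0 h libraries. The fitted log2 fold change of 2.14 had a wide 95% interval (0.38 to 3.91) and missed the threshold (standard error 0.791, FDR 0.135 by edgeR). The exact test of edgeR gave an FDR of 0.0428, but as Acvrl1 was tested only because of its counts at 6 h PCS, a call in this direction is partly set by the filter. The 4 endothelial markers of 11 that could be named summed to 4.10 to 26.3 CPM at 0 h PCS and 20.0 to 36.9 CPM at 6 h PCS, with overlap, and none of the 4 was at 0 in all libraries. Pecam1 was at 0.518 to 1.16 CPM at 0 h PCS and at 1.75 to 4.76 CPM at 6 h PCS (FDR 0.0644 by edgeR), Cdh5 at 0.0863 to 0.387 and at 0.940 to 4.76 CPM (FDR 0.0529). Cdh5 had 9, 5 and 2 counts at 0 h PCS. Like Acvrl1, it passed the low-count filter only through its libraries at 6 h PCS, so its direction is partly set by the filter. Kdr, which made up most of the sum, was at 8.78, 25.03 and 3.15 CPM at 0 h PCS and at 32.0, 16.5 and 13.9 CPM at 6 h PCS, and it overlapped between the time points, as did Tek. Whether endothelial RNA had a part in the values of Acvrl1 was not tested.

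Because the changes of several receptor genes were within the range of the library scaling, the counts of each were also expressed as a share of the counts of all 7 receptor genes in the same library. These shares depend on neither the scaling nor the depth, but they are not corrected for length and do not compare the level of one gene with that of another. The share of Acvr2a was 5.09%, 5.12% and 5.97% at 0 h PCS and 2.82%, 2.96% and 3.15% at 6 h PCS. The share of Acvr1 was 5.76%, 5.67% and 6.09% at 0 h PCS and 8.13%, 7.12% and 9.97% at 6 h PCS. Both were separated between the time points, in opposite directions. Bmpr1a went from 24.9% ± 0.390 to 20.6% ± 2.55 and Bmpr2 from 52.2% ± 2.08 to 57.7% ± 3.30 (SD, n = 3), each without overlap, whereas the shares of Acvr1b overlapped. Summed over the type I receptor genes, the share was 42.4% ± 1.58 at 0 h PCS and 39.1% ± 3.32 at 6 h PCS (SD, n = 3), and these ranges overlapped. With 3 libraries in each group, an exact two-sided permutation test gives 0.10, its lowest possible p, for any share without overlap. The test therefore adds nothing to the separation itself. The shares of a library are parts of the same total, so they do not move independently of one another.

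Within each library, the count of Acvr1 relative to that of Acvr2a ran from 1.02 to 1.13 at 0 h PCS, and at 6 h PCS it ran from 2.41 to 3.16. The count of Bmpr2 relative to that of Acvr2a ran from 8.33 to 10.5 at 0 h PCS and from 19.1 to 19.9 at 6 h PCS. The 3 libraries at 6 h PCS thus had close to the same ratio of Bmpr2 to Acvr2a, and it lay above all 3 at 0 h PCS. These pairs were chosen after the values were seen and were not tested. Together the 7 receptor genes took 331 to 366 CPM at 0 h PCS and 353 to 405 CPM at 6 h PCS.

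**Figure D3:**
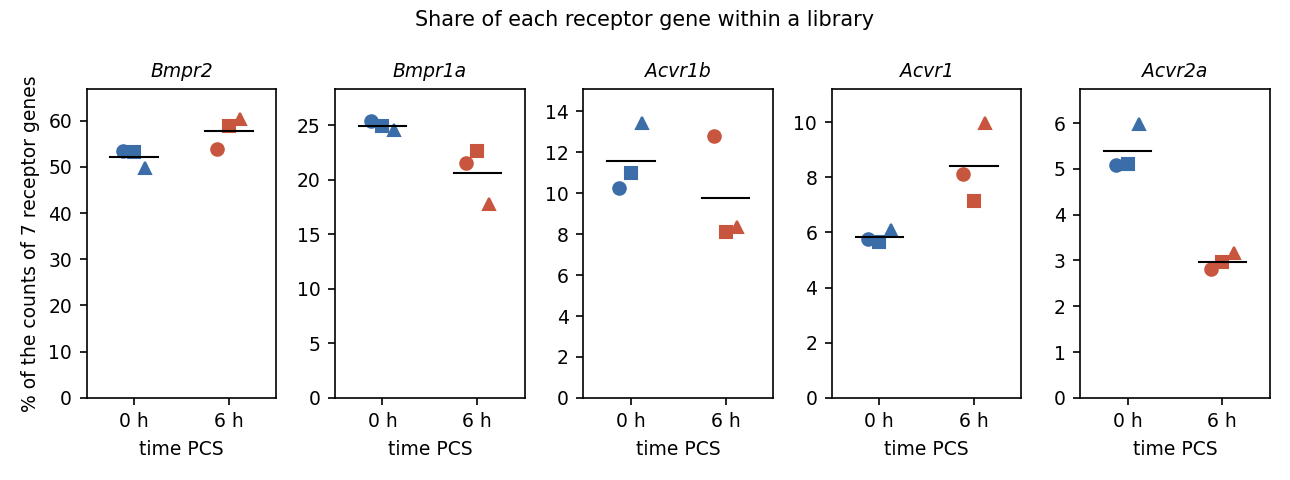
Share (%) of Bmpr2, Bmpr1a, Acvr1b, Acvr1 and Acvr2a in the counts of the 7 receptor genes, in each library at 0 h PCS (blue) and 6 h PCS (red), with circles, squares and triangles for replicates 1, 2 and 3 and bars for the means; Acvrl1 and Amhr2 had under 1% and are not drawn. The shares of Acvr1 and Bmpr2 are higher and those of Acvr2a and Bmpr1a lower in all 3 libraries at 6 h PCS, and Acvr1b overlaps.

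Levels of different genes can be compared per exon length where a length was at hand, for 4 of the 8 genes. At 0 h PCS the order of the means was Acvr1 (4.74 ± 0.488 FPKM), Msx2 (3.76 ± 1.09 FPKM), Acvr2a (3.73 ± 0.584 FPKM) and Amhr2 (0.00780 ± 0.0135 FPKM, SD, n = 3). Across libraries the values of Acvr1 overlapped with those of Msx2 and of Acvr2a, and Msx2 and Acvr2a differed by less than their spread. Within each library at 0 h PCS Acvr1 was the highest of these 3 genes, and Msx2 and Acvr2a changed order between libraries. At 6 h PCS the order was Acvr1 (5.88 ± 1.25 FPKM), Acvr2a (1.77 ± 0.227 FPKM), Msx2 (0.937 ± 0.119 FPKM) and Amhr2 (0.310 ± 0.187 FPKM; SD, n = 3), with each gap larger than the SDs of the genes beside it.

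Other genes of the pathway were taken from lists by role, which name 91 genes besides these 8. Of the 91, 32 could be named in the counted data and all 32 were tested; the others were not analysed here. The names come largely from tables sorted by p-value and lean towards changed genes, so the counts that follow are not a fair sample of the pathway. Of the 32, 4 were upregulated DEGs (Inhba, Inhbb, Tgif1 and Id2) and none was a downregulated DEG, while 7 rose and 1 fell at an FDR of at most 0.05 alone. With the same TMM scaling 4.53% of all tested genes were upregulated and 0.821% downregulated DEGs. At an FDR of at most 0.05 alone, 6.31% of all tested genes rose and 2.02% fell. The balance among the 32 turned with the scaling. On library size alone 1 was an upregulated DEG (Tgif1) and 2 were downregulated DEGs (Rgmb and Msx1), and at an FDR of at most 0.05 alone 4 rose (Inhba, Inhbb, Tgif1 and Id2) and 5 fell (Rgmb, Neo1, Twsg1, Smad6 and Msx1). With that scaling 3.4% of all tested genes were upregulated and 3.73% downregulated DEGs, and 4.44% rose and 10.9% fell at an FDR of at most 0.05 alone. Their median change on the log2 scale was 0.34 with TMM scaling, beside −0.0030 for all genes tested, and 0.025 on library size alone, beside −0.32.

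Among the 7 ligand genes that could be named, the activin subunit genes Inhba and Inhbb were DEGs with TMM scaling. Inhba, which encodes the βA subunit of activin A, was at 179, 132 and 159 CPM at 0 h PCS and at 498, 386 and 269.9 CPM at 6 h PCS. The log2 fold change was 1.30 (standard error 0.221, FDR 0.00718 by edgeR), and Inhba passed the FDR limit in all 6 fits without 1 library. Inhbb, which encodes the βB subunit, rose from 8.84 ± 0.925 to 21.3 ± 6.84 CPM (SD, n = 3). Its log2 fold change was 1.26 (FDR 0.0171 by edgeR), and it passed in 3 of those 6 fits. On library size alone both still passed the FDR limit, with log2 fold changes of 0.98 and 0.92 that lie under the fold limit. Activins bind the product of Acvr2a, whose mRNA fell in the same libraries.

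Of the BMP ligand genes, Bmp4 rose from 6.93 ± 0.769 to 13.5 ± 2.88 CPM (SD, n = 3). Its log2 fold change was 0.97 (FDR 0.0367 by edgeR), but it did not pass in any of the 6 fits without 1 library or on library size alone. Bmp2 was at 34.3, 63.5 and 44.1 CPM at 0 h PCS and at 66.4, 82.5 and 102.8 CPM at 6 h PCS, a log2 fold change of 0.83 that missed the threshold (FDR 0.0677 by edgeR). Bmp2 passed the FDR limit in 5 of 16 alternative fits, and without 0 h replicate 2 it was a DEG (1.09, FDR 0.0233). Bmp7 was at 77.3 ± 5.76 and 84.5 ± 13.2 CPM (SD, n = 3), and its libraries overlapped. Gdf11 and Gdf15 did not pass.

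Among the other receptors and co-receptors, Bmpr1b, the closest relative of Bmpr1a, was at 3.31, 3.64 and 1.38 CPM at 0 h PCS and at 3.83, 6.66 and 10.9 CPM at 6 h PCS. Its log2 fold change of 1.36 (standard error 0.476) missed the threshold (FDR 0.119 by edgeR), and it was called with no low-count filter (FDR 0.0117) and with DESeq2 (FDR 0.0482). Tgfbr2 was at 9.69 ± 2.52 and 19.1 ± 8.43 CPM (SD, n = 3; FDR 0.102 by edgeR). It passed the FDR limit in 4 of 16 alternative fits and was a DEG without 6 h replicate 1 (log2 fold change 1.23, FDR 0.0326). Bmpr1b and Tgfbr2 both had their highest level in 6 h replicate 3. Rgmb, which encodes a membrane-anchored BMP co-receptor, fell from 50.8 ± 3.501 to 28.3 ± 5.05 CPM (SD, n = 3). This was a log2 fold change of −0.85 (FDR 0.0134 by edgeR), and it passed in 5 of the 6 fits without 1 library. Bambi, which encodes a pseudoreceptor without a kinase domain, was at 17.6 ± 3.92 and 19.7 ± 7.51 CPM (SD, n = 3). None of the 5 extracellular antagonist genes that could be named (Fstl3, Sostdc1, Twsg1, Nbl1 and Dand5) passed, and their log2 fold changes ran from −0.27 to 0.33.

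Of the SMAD genes, Smad1, which encodes a transducer of BMP signals, rose from 20.0 ± 1.65 to 39.8 ± 10.7 CPM (SD, n = 3). It had a log2 fold change of 0.99 (FDR 0.0155 by edgeR) and passed in 4 of the 6 fits without 1 library. Smad7 and Smad6 encode inhibitory SMADs. Smad7 rose, from 44.8, 34.4 and 43.7 CPM to 75.4, 69.5 and 75.4 CPM, a log2 fold change of 0.84 (FDR 0.00775 by edgeR) that passed in all 6. Smad1 and Smad7 missed the FDR limit on library size alone (0.0546 and 0.0506). Smad6, which acts mainly on BMP signals, was at 24.6, 20.8 and 25.6 CPM at 0 h PCS and at 19.7, 13.8 and 12.2 CPM at 6 h PCS. This was a log2 fold change of −0.64 that missed the threshold (FDR 0.105 by edgeR), although the libraries did not overlap. Smad6 passed on library size alone (−0.97, FDR 0.0177), with no low-count filter (FDR 0.0425) and without 6 h replicate 1 (−0.87, FDR 0.0268). Tgif1, which encodes a corepressor of SMAD2 and SMAD3, rose from 46.6 ± 15.05 to 131 ± 22.8 CPM (SD, n = 3), 2.82-fold (FDR 0.00538 by edgeR). Ski, Skil, Smurf1 and Tob1 had log2 fold changes between 0.36 and 0.77 and did not pass. Alternative fits in which Skil passed the FDR limit include the exact test, the edgeR 4 method and the fit without 6 h replicate 1. Ski passed without 6 h replicate 2.

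The Id genes encode inhibitors of basic helix-loop-helix factors and are known as direct BMP targets. Among Id1, Id2 and Id3 only Id2 passed the FDR limit, and differences between them were not tested. Id2 rose from 43.5 ± 2.10 to 97.6 ± 19.0 CPM (SD, n = 3). Its log2 fold change was 1.17 (FDR 0.00230 by edgeR), and it passed in all 6 fits without 1 library. Id1 was at 21.5, 25.8 and 21.9 CPM at 0 h PCS and at 22.6, 20.6 and 31.1 CPM at 6 h PCS, with a log2 fold change of 0.10 and a 95% interval from −0.33 to 0.54. Id3 was at 48.1 ± 10.2 and 39.3 ± 2.61 CPM (SD, n = 3), with a log2 fold change of −0.29 (95% interval −0.68 to 0.10). Of the 8 BMP target genes that could be named, 2 rose (Id2 and Smad7) and none fell at an FDR of at most 0.05 with TMM scaling, whereas on library size alone 1 rose (Id2) and 2 fell (Msx1 and Smad6). Of all genes tested, 6.31% rose and 2.02% fell with TMM scaling, and 4.44% rose and 10.9% fell on library size alone. With TMM scaling the log2 fold changes ran from −0.82 for Msx1 to 1.17 for Id2. Msx2, with a log2 fold change below that of each of the 8, was not counted among them. Id2 on library size alone had a log2 fold change of 0.85 and was no longer a DEG by the fold limit.

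**Figure D4:**
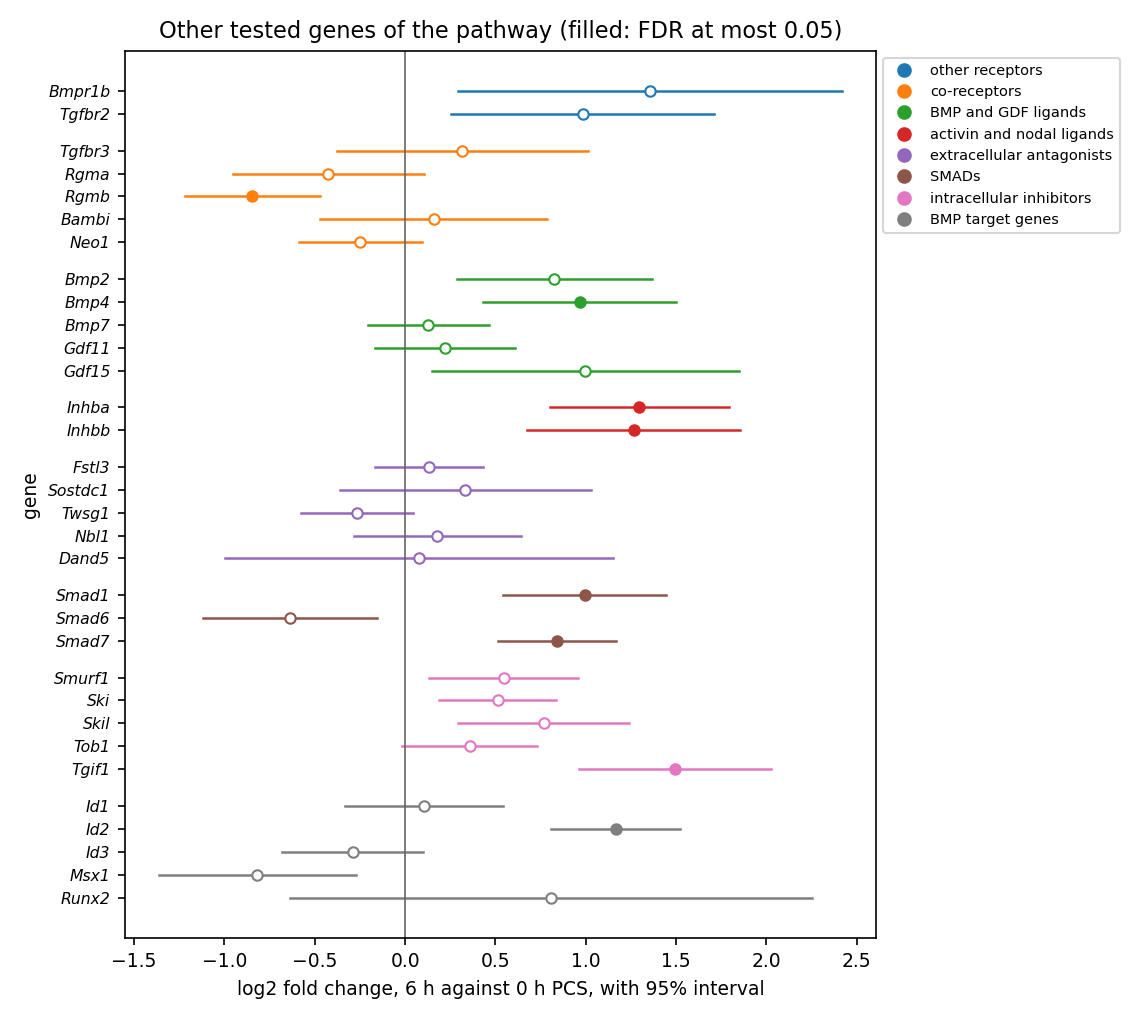
Log2 fold change at 6 h against 0 h PCS with TMM scaling, with 95% intervals, of the 32 other pathway genes that were named and tested, coloured by role; filled points have an FDR of at most 0.05 and a gene in several lists is drawn once. Filled points lie to the right for Bmp4, Inhba, Inhbb, Smad1, Smad7, Tgif1 and Id2 and to the left for Rgmb, and on library size alone 4 genes rose and 5 fell.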

How the data were processed

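Libraries were made with a stranded, ribodepleted total RNA kit. The authors used Hisat2 to align read pairs to GRCm38, and HTSeq (union mode) to assign them to Ensembl genes. The deposited values are raw counts, without normalization, 1 file per pool. The 5 summary rows of HTSeq were left out, and gene counts were 33.6% to 41.2% of each file's total. The strand setting is not given in the sources used here.

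Counts were fitted with edgeR 4.0.16 in R 4.3.3 (with limma 3.58.1) following the study's methods: TMM factors (1.09 to 1.15 at 0 h PCS, 0.827 to 0.990 at 6 h PCS), filterByExpr by group, robust dispersions and the legacy quasi-likelihood F-test. The standard error is the absolute log2 fold change over the square root of F, and 95% intervals use the t distribution of the fit. FPKM used total gene counts and exon lengths from the study's tables, which also gave the gene symbols (identifiers of Bmpr1a and Bmpr2 were given with the gene list). Coordinates are from RefSeq, matched by symbol. The fits were tested on simulated data.

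The genes and lists were chosen with earlier results of these data known. Named genes are the 8, the pathway genes at an FDR of at most 0.05, and set receptors, ligands, targets and SMADs, plus the 5 nearest genes of called members. Replicate numbers were not used to pair the pools. Alternatives were DESeq2 1.42.0, the exact test, the edgeR 4 method, no robust estimation, library size scaling, DESeq2 size factors, other filters, glmTreat, a replicate block and leaving out each library. Sequences were not analysed here. No molecular identifiers were used in the counting, so counting intervals cover counting error only.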

Additional observations from a re-analysis of the deposited data

How the results depend on the processing

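Msx2 was the single DEG among the 8 genes in the 6 fits without 1 library and in 7 of the other 10 fits. On library size alone there were 2 DEGs (with Acvr2a), with the exact test 2 (with Acvrl1), and with glmTreat 0 (0 of the 32 pathway genes too, and 221 against 900 of all genes), which tests the same estimates (−1.67 for Msx2 and −0.76 for Acvr2a) against a stricter limit. Genes past the FDR limit numbered 2, but 1 in every fit without 1 library and 1 with the DESeq2 size factors (Acvr2a at −0.75), and 0 with glmTreat. Log2 fold changes without 1 library ran from −0.86 to −0.65 for Acvr2a, from −0.38 to 0.0057 for Acvr1b, from −0.19 to 0.33 for Bambi and from −0.095 to 0.20 for Id1. On library size alone the sign turned for Bmpr2 (−0.065), Bambi (−0.18), Bmp7 (−0.18) and Id1 (−0.22), and Bmpr1a passed (−0.49). Acvr1 passed with no low-count filter (0.62) and Acvrl1 with the exact test (2.14). Of the pathway genes, 4 were DEGs, and 2 (without 6 h replicate 3) to 7 (without 6 h replicate 1) without 1 library; 8 passed the FDR limit, and 4 (without 0 h replicate 1) to 11 did so without 1 library, 15 with no filter and 14 with DESeq2. All DEGs numbered 553 to 877 without 1 library. On TMM effective library sizes the FPKM of Acvr1 at 0 h PCS was 4.24 and that of Msx2 at 6 h PCS 1.06. Deviations of same-numbered pools correlated at 0.0037, 0.223 and 0.139, and those of other pools at −0.191 to 0.023. The labels state no pairing and the numbers were not used as pairs, but these values do not settle whether pools were paired. With the replicate block 1 of the 8 genes was a DEG, 2 passed the FDR limit, and 11 pathway genes did. Over all genes the replicate block gave 1050 DEGs against 900. The cause of these differences was not tested. Acvrl1 and Amhr2 are limited by their low counts. The non-overlap count, the shares, the list directions on library size and the stromal sum without Pdgfra were added after seeing the data.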

Other observations

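Acvrl1 and Acvr1b are neighbours on chromosome 15 of GRCm38, 28735 bases apart, with 0 RefSeq genes between them. Acvrl1 had a fitted log2 fold change of 2.14 from at most 9 counts per library at 0 h PCS, and Acvr1b one of −0.15. Neither passed the FDR limit, and the difference between them was not tested.

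The genes whose log2 CPM over the 6 libraries was most like that of Acvr2a were Klhl22 (Pearson's r 0.999), Disp1 (0.997), Zfp942 (0.995), 4732465J04Rik (0.994) and Zfp322a (0.993). For Msx2 they were Zfp874b (0.996) and Rab14 (0.994), and 3 genes without a name at hand. Among the 16810 tested genes, 145 had an r above 0.95 with Acvr2a and 125 with Msx2. The 6 libraries share the contrast of time points, so these values describe the libraries and were not tested. Of the named ones, Klhl22 fell from 29.6 to 14.2 CPM (log2 fold change −1.06, FDR 0.0113 by edgeR), Zfp942 fell from 12.5 to 4.14 CPM (−1.59, FDR 0.0117) and 4732465J04Rik from 4.04 to 0.943 CPM (−2.10, FDR 0.0281), and Disp1, Zfp322a, Zfp874b and Rab14 did not pass. As all were picked for a profile like that of Acvr2a or Msx2, which fell, their direction follows in part from the choice.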
